A study of Homo sapiens with 2 samples.

Results

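The histone demethylase LSD2 was mapped in HepG2 cells by ChIP-seq, the sequencing of DNA pulled down with an antibody, and the peaks described here are those that flank the centromeres of 17 autosomes. LSD2, the product of KDM1B, is a flavin-dependent enzyme that removes methyl groups from a lysine of the histone H3 tail. HepG2 is an established, aneuploid human line from a liver tumour. The groups were the LSD2 ChIP (1 library), precipitated with a rabbit polyclonal antibody to recombinant human LSD2, and the input (1 library), which was not precipitated. Both came from cells under normal culture conditions, in high-glucose medium with serum, and both were sequenced on a pair of Ion Torrent platforms.

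Of the 370863 distinct intervals in the authors' list of LSD2 peaks over input, 19832 (5.35%) were pericentromeric. They were chosen by position and width alone. On chromosomes 1 to 12 and 16 to 20 the longest stretch without a peak was taken as the centromere, and every interval was kept whose midpoint lay within 5 Mb of either edge and whose width was below 1000 bp. This gave 34 flanks, 1 on each chromosome arm, with 170 Mb in all. The 66513 intervals under 1000 bp at 5 to 20 Mb from the same edges served for comparison. Each condition had 1 library, and the same positions both chose the members and are described below, so no difference could be set against replicate error and no test is given. The list carries no height, fold or p per peak, and the sequencing depth is unknown here.

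Human centromeres are built on long arrays of alpha satellite, a tandem repeat, on which the kinetochore assembles. The flanking pericentromeric DNA is rich in other satellites and in duplicated segments, and much of it is packed as constitutive heterochromatin. On the long arms of chromosomes 1, 9 and 16 it forms blocks large enough to be seen in stained chromosomes. In the hg19 assembly the arrays are mostly runs of unknown bases, in which no read can be placed and no peak can be called.

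The peak-free stretches stood clear of all others on their chromosomes. The shortest, on chromosome 3, was 3.002 Mb long and the longest 21.1 Mb, with a median of 3.10 Mb, and 14 of the 17 were no longer than 3.27 Mb. The longer ones were on chromosome 1 (21.1 Mb, chr1:121479223-142551583, hg19), chromosome 9 (18.3 Mb, chr9:47213575-65479910) and chromosome 16 (11.1 Mb, chr16:35279066-46416607). Each stretch was at least 2.62 times as long as the second longest on its chromosome. That lowest value was on chromosome 2, where a stretch of 3.03 Mb (chr2:92301469-95326606) had a second one of 1.16 Mb close to it. The stretches were not set against a centromere annotation of hg19, which was not used here, so "centromere" below means the longest peak-free stretch.

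On the other chromosomes the stretches lay as follows, in hg19 coordinates. Those of the larger chromosomes were at chr3:90504868-93506722, chr4:49553122-52676921, chr5:46401980-49405678 and chr6:58761235-61881632. Next in number came chr7:58046754-61054849, chr8:43831869-46844725, chr10:39112890-42386343, chr11:51591673-54793815 and chr12:34852998-37860793. The smallest chromosomes had theirs at chr17:22247540-25272732, chr18:15407075-18510897, chr19:24587388-27756053 and chr20:26319615-29421202. The short arm of chromosome 18 held 15.4 Mb of peak-bearing sequence, so its comparison zone ended at its first peak rather than at 20 Mb.

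Over the 5 Mb flanks as a whole, LSD2 peaks were somewhat sparser than farther out on the arms. The flanks held 117 peaks per Mb, against 132 per Mb at 5 to 20 Mb and 139 per Mb beyond 20 Mb. The ratio of flanks to the zone at 5 to 20 Mb was 0.89 (95% exact interval 0.87 to 0.90), and peaks under 1000 bp covered 2.80% of the flanks and 3.06% of that zone. Intervals of this kind cover counting only and treat peaks as independent. Counts per 100 kb had a variance of 4.50 times their mean in the flanks and 3.47 times at 5 to 20 Mb, so these intervals are too narrow. The DNA copy number and the mappability of the flanks were not measured, and their part in the difference was not tested.

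The arms differed widely among themselves in the flanks. Density ran from 14.0 to 187 peaks per Mb over the 34 flanks (median 119, mean 117 ± 37.7, SD over flanks), and from 89.9 to 181 per Mb at 5 to 20 Mb of the same arms (median 130, mean 132 ± 21.7). The outer zone is the longer one, and in zones of 5 Mb the SD over arms was 37.7 peaks per Mb in the flanks, 31.0 at 5 to 10 Mb, 26.1 at 10 to 15 Mb and 27.3 at 15 to 20 Mb. Without chromosome 9 it was 29.997 in the flanks and 29.4, 26.8 and 27.8 in the next 3 zones. The flank was the sparser zone on 25 of 34 arms. The counting interval of the ratio lay below 1 on 17 arms, above 1 on 7 and across 1 on 10. The median ratio was 0.90. Both arms were sparser beside the centromere on 10 of 17 chromosomes, both were denser on chromosomes 6 and 11, and the other 5 had 1 arm of each kind.

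**Figure D1:**
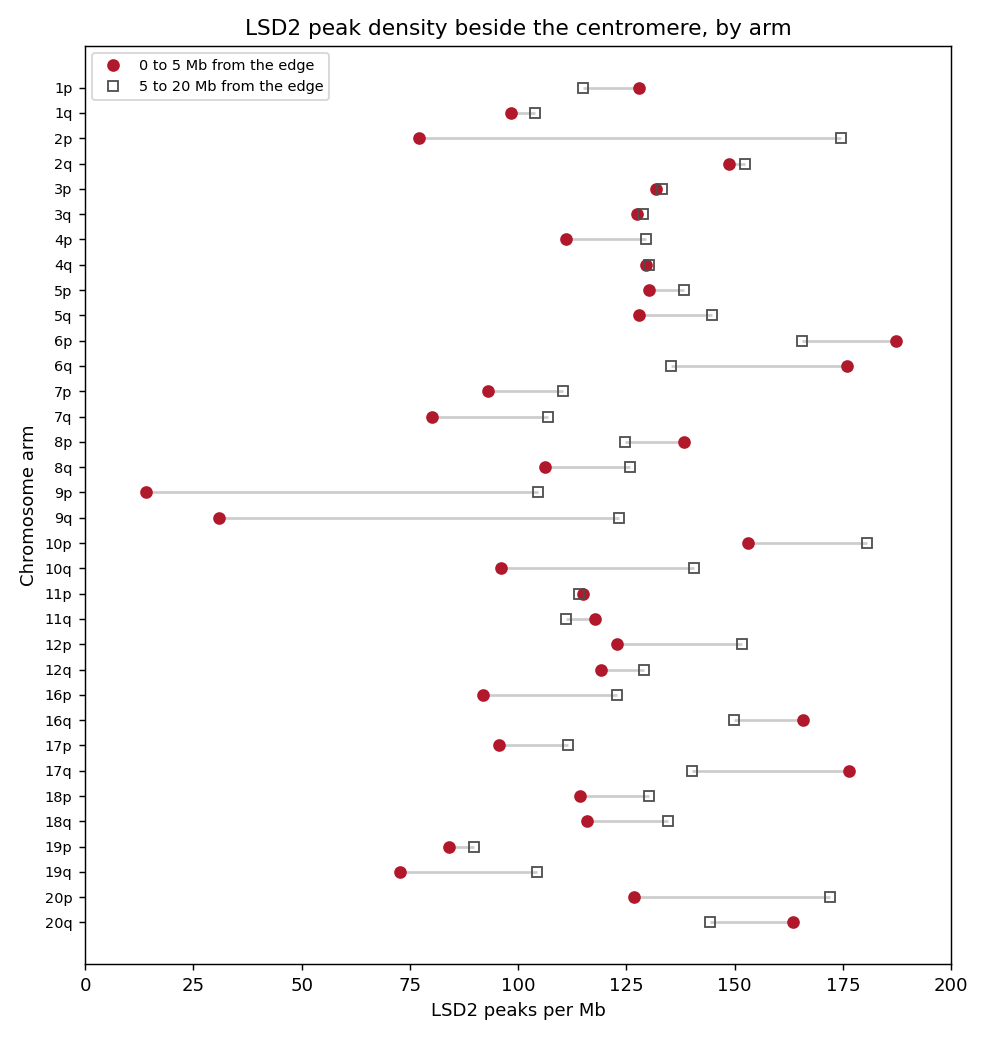
LSD2 peaks under 1000 bp per Mb on each chromosome arm, at 0 to 5 Mb (filled circles) and at 5 to 20 Mb (open squares) from the edge of the longest peak-free stretch, 1 value a zone and arm. Circles lie left of squares on 25 of 34 arms, with the widest separations on 9p, 9q and 2p.

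Chromosome 9 had the sparsest flanks. Its short arm held 70 peaks in 5 Mb, or 14.0 per Mb, against 104 per Mb at 5 to 20 Mb (ratio 0.13, 95% exact interval 0.10 to 0.17). Outward from the edge its 5 windows of 1 Mb held 8, 15, 14, 18 and 15 peaks. The low stretch did not stop at 5 Mb. The next 3 windows on 9p held 20, 19 and 3 peaks, and the 2 after them held 98 and 146. The long arm of chromosome 9 held 31.0 peaks per Mb, against 123 per Mb farther out (ratio 0.25, 0.21 to 0.30), with 16, 36, 45, 31 and 27 peaks per window.

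The next lowest ratios were those of 2p, 10q and 19q, and 20p (0.74), 16p (0.75) and 7q (0.75) were also below 0.8. On 2p there were 77.2 peaks per Mb, against 175 per Mb at 5 to 20 Mb (ratio 0.44, 0.40 to 0.49). Density was uneven along 2p, where successive windows held 74, 9, 66, 165 and 72 peaks. The window with 9 peaks, chr2:90301469-91301468, contained most of the second-longest peak-free stretch of that chromosome. On 10q the density was 96.0 per Mb, against 141 per Mb (ratio 0.68, 0.62 to 0.75), and its lowest window, with 45 peaks, was the one farthest from the edge. On 19q it was 72.8 per Mb, against 104 per Mb (ratio 0.70, 0.62 to 0.78), with 57 to 96 peaks in every window and none of them empty for 100 kb.

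A smaller number of flanks, 9 of 34, were denser than the zone at 5 to 20 Mb, which is only a part of the rest of the arm. For scale, the median 1 Mb window held 164 peaks on chromosome 6, 138 on chromosome 17, 142 on chromosome 20 and 124 on chromosome 1. On 6q there were 176 peaks per Mb, against 135 per Mb at 5 to 20 Mb (ratio 1.30, 1.20 to 1.41), with 141, 175, 212, 201 and 151 peaks per window. On 17q there were 176 per Mb, against 140 per Mb (ratio 1.26, 1.16 to 1.36). The flank of 20q had 163 per Mb, against 144 per Mb (ratio 1.13, 1.04 to 1.23), and that of 6p had 187 per Mb, the highest of the 34, against 166 per Mb (ratio 1.13, 1.05 to 1.22). The fifth was 1p, with 128 per Mb, against 115 per Mb (ratio 1.11, 1.02 to 1.22). In all 5 the window next to the centromere held fewer peaks than the average of its own flank, from 78 on 1p to 141 on 6q. The other 2 flanks whose interval lay above 1 went the other way, with 174 peaks in the first window of 16q, against a flank average of 165.8, and 140 on 8p, against 138.2.

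Windows of 1 Mb with very few peaks were more frequent in the flanks than over the arms as a whole. A window was called sparse below 0.5 times, and dense above 1.5 times, the median window of its chromosome. In the flanks 20 of 170 windows (11.8%) were sparse, against 3.20% of all 2346 windows on the 17 chromosomes and 2.97% at 5 to 20 Mb. Dense windows numbered 5 (2.94%) in the flanks, against 4.69% of all windows and 4.36% at 5 to 20 Mb. All 10 windows of chromosome 9 were sparse, and without that chromosome 10 of 160 (6.25%) were. The other 10 were 4 on 2p, 2 on 1q, 2 on 7q and 1 each on 10q and 18p.

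Single windows show the spread. The sparsest were chr9:46213575-47213574 with 8 peaks, chr2:90301469-91301468 with 9, chr9:44213575-45213574 with 14, and chr9:45213575-46213574 and chr9:42213575-43213574 with 15 each. The windows with the most peaks were chr6:55761235-56761234 with 243, chr20:32421203-33421202 with 228, chr16:47416608-48416607 with 224, chr17:28272733-29272732 with 217 and chr6:56761235-57761234 with 213. None of these 5 crowded windows touched the edge. Their median peak widths ran from 208 to 240 bp, against 172 bp over all peaks at 5 to 20 Mb. Crowded sequence in that zone had wider peaks as well, with a median of 200 bp in 100 kb steps of more than 20 peaks.

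**Figure D2:**
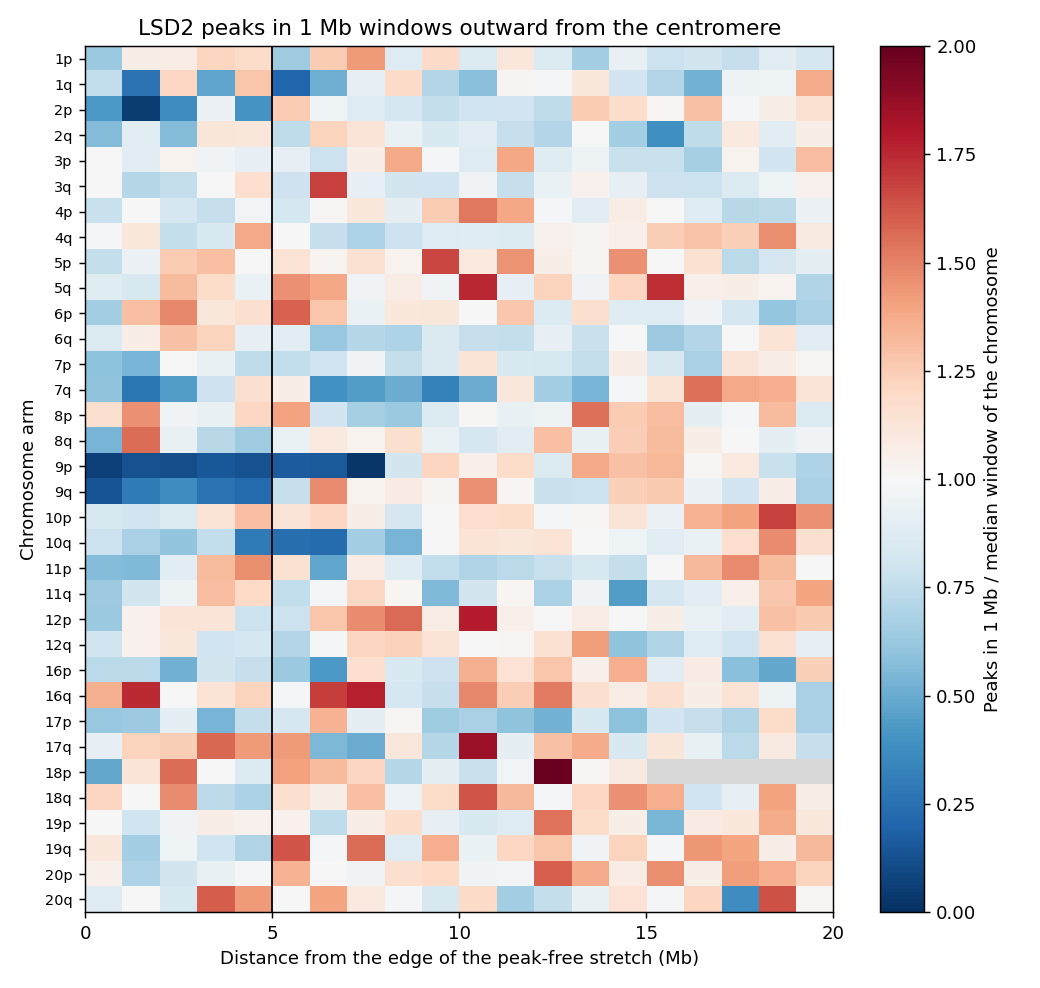
Peaks under 1000 bp in 1 Mb windows outward from the centromere edge (x axis, Mb) on each arm (rows), divided by the median window of the chromosome and shown as colour. The line marks 5 Mb, and grey marks sequence beyond the end of 18p. Dark blue windows are grouped on 9p, 9q, 2p, 7q, 10q and 1q, and on 9p they continue to 8 Mb.

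The deficit was steepest in the first Mb. Density over the 34 flanks averaged 99.4 ± 36.0 peaks per Mb (SD over flanks) in the first Mb, 112 ± 53.6 in the second, 121 ± 46.1 in the third, 127 ± 49.5 in the fourth and 125 ± 49.7 in the fifth. From 5 to 20 Mb the averages per step lay between 123 and 146. The first Mb was sparser than the zone at 5 to 20 Mb on 28 of 34 arms and below the median window of the chromosome on 26. It exceeded that median on 6 arms, by the most on 16q, at 1.35 times. No window in the first Mb was dense. The first 100 kb held 125 peaks per Mb, with a ratio to the zone at 5 to 20 Mb of 0.95 (95% exact interval 0.86 to 1.04). This count includes the border peak that the rule places on each arm, except on the 4 arms where it is 1000 bp or wider. Density without border peaks was not computed, so this ratio cannot show whether the deficit held in the first 100 kb. Peaks under 1000 bp, border peaks included, covered 4.33% of the first 100 kb, against 3.06% of that zone.

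Part of the flank sequence held no peak over long distances. Peak-free stretches of 100 kb or more took up 15.3 Mb of the flanks (9.02%), against 9.49 Mb (1.88%) at 5 to 20 Mb, and 18 of 34 flanks had some. On 9p they made up 73.4% of the flank, on 9q 64.2%, on 1q 33.2% and on 2p 33.0%. With these stretches left out of the length, density was 128 peaks per Mb in the flanks and 134 per Mb at 5 to 20 Mb, a ratio of 0.96, and 24 of 34 arms were still the sparser in the flank. In the first Mb alone the density outside such stretches was 112 per Mb, against 134 per Mb at 5 to 20 Mb. The longest were 1156 kb at chr2:90472939-91628854, 554 kb at chr1:145833044-146386798, 552 kb at chr9:46329550-46881794, 449 kb at chr9:44904375-45352969 and 422 kb at chr9:45781462-46203122. Whether reads could be placed in these stretches was not tested.

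Pericentromeric peaks were slightly wider than those farther out, and the excess was largest close to the edge. Width had a median of 177 bp in the flanks (order-statistic 95% interval 175 to 179 bp), against 172 bp (171 to 173 bp) at 5 to 20 Mb and 174 bp beyond 20 Mb. Members at or above 400 bp were 9.12% of all in the flanks (95% Wilson interval 8.73% to 9.53%), against 7.73% (7.53% to 7.93%). The narrow class, from 140 bp to below 170 bp, was 45.5% of the flanks and 47.6% of the zone at 5 to 20 Mb. By arm, the median was larger in the flank on 23 of 34 arms and smaller on 10, and the differences ran from -13.5 to 60.0 bp. It was larger on 16 of the 25 sparser flanks as well as on 7 of the 9 denser ones.

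In the first 100 kb from the edge the peaks were a different size. The median over the 424 peaks there was 316.5 bp (291 to 341 bp), against 172 bp at 5 to 20 Mb. The share from 400 bp to below 1000 bp was 28.3% (24.2% to 32.8%), against 7.73%, and the narrow class from 140 bp to below 170 bp was 21.2%, against 47.6%. These peaks made up 2.14% of the members and 6.63% of all members of 400 bp or more. DNA copy number and mappability at the edge were not measured, and their part in these widths was not tested.

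The width declined over a short distance. Median width was 388.5 bp in the first 20 kb, 317 bp from 20 to 40 kb, 296 bp from 40 to 60 kb, 276.5 bp from 60 to 80 kb and 232.5 bp from 80 to 100 kb. The decline was not even. The median was 271 bp from 100 to 120 kb and 291 bp from 120 to 140 kb, then 214.5, 184 and 164 bp in the next 3 steps. Over 100 kb it was 231 bp from 100 to 200 kb and 184 bp from 200 to 300 kb. From 300 kb to 5 Mb it was 175 bp (173 to 176 bp), which is 1.02 times the 172 bp at 5 to 20 Mb. Peak density over the same steps was uneven, at 176, 119, 154, 88.2 and 85.3 peaks per Mb, and it was 104 per Mb from 100 to 140 kb. Each edge is by construction the border of a peak, which adds 1 peak to the first step, except on the 4 arms where that peak is 1000 bp or wider.

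**Figure D3:**
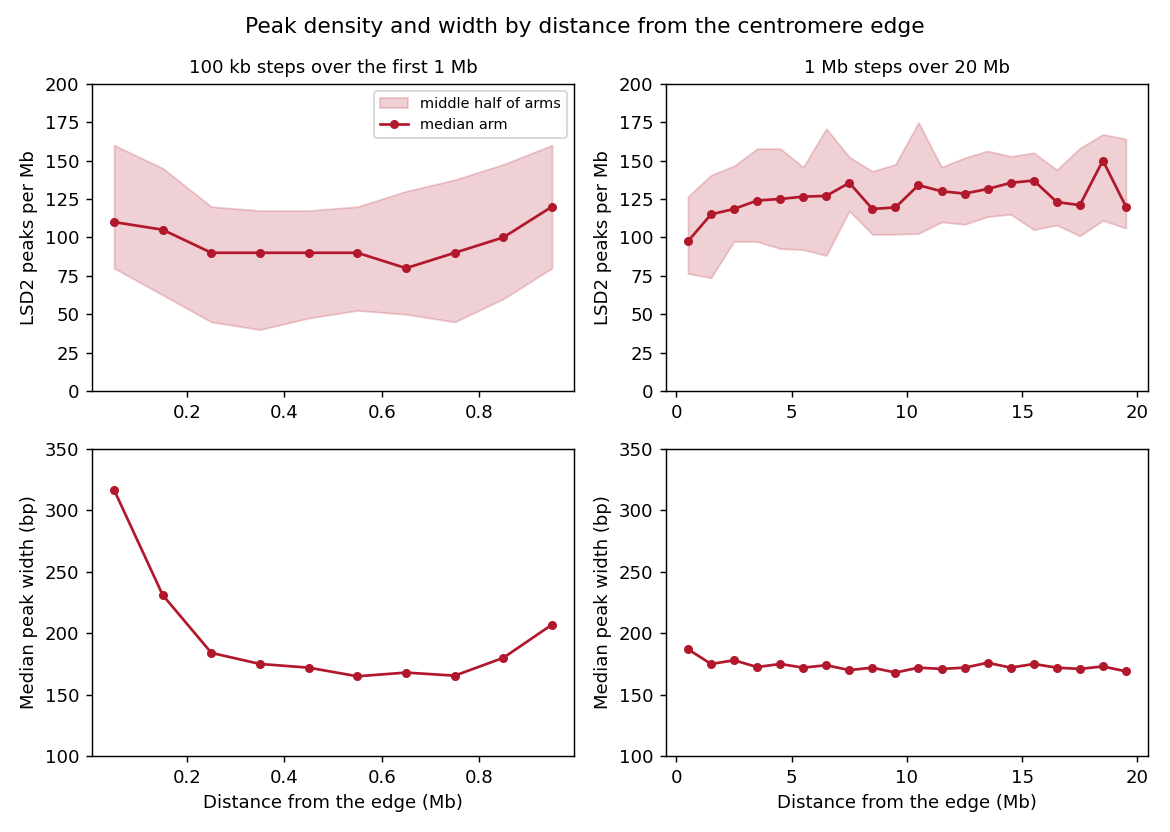
Density of peaks under 1000 bp (top, peaks per Mb, median over arms with the interquartile range shaded) and their median width (bottom, bp, all arms pooled, axis from 100 bp) against distance from the centromere edge, in 100 kb steps (left) and 1 Mb steps (right). Width falls steeply over the first 300 kb, from 316.5 bp in the first step. Density is lowest in the first of the 1 Mb steps. Within that step the median over arms is 110 peaks per Mb in the first 100 kb, border peaks included, and 80 to 120 in the others.

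The wide peaks at the edge were found on most arms. The median width of the first 100 kb exceeded that of the same arm at 5 to 20 Mb on 30 of 34 arms, and it was 200 bp or more on 29. Over arms it had a minimum of 158 bp, a median of 336 bp and a maximum of 591.5 bp. The number of peaks behind each value was small, from 2 to 29 with a median of 11. With each chromosome left out in turn, the pooled median stayed between 304 and 327.5 bp and the share of 400 bp or more between 26.8% and 29.6%.

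The arms with the widest edge peaks were 1p, 2p, 8q, 12p and 5p. On 1p the median was 591.5 bp over only 2 peaks, against 168 bp at 5 to 20 Mb. On 2p it was 541.5 bp over 8 peaks, against 181 bp. On 8q it was 506 bp over 5 peaks, 4 of them of 400 bp or more. On 12p 10 of 14 peaks reached 400 bp and the median was 493.5 bp, against 171 bp. On 5p 10 of 18 did, with a median of 425.5 bp, against 172 bp.

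On 4 arms the edge peaks were narrower than the peaks farther out. Median widths of the first 100 kb were 158 bp on 4p, 159 bp on 12q, 162.5 bp on 3q and 170 bp on 2q, against 168 to 181 bp at 5 to 20 Mb of the same arms. None of these 4 had a member of 400 bp or more in the first 100 kb, but 4p had 1 interval of 1301 bp there that the width limit leaves out. Chromosomes 2 and 12 thus had 1 arm among the widest and 1 among the narrowest. Pooled over arms, the median was 350 bp on short arms (235 peaks) and 253 bp on long arms (189 peaks), and 16 of 17 short arms and 14 of 17 long arms exceeded their zone at 5 to 20 Mb.

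**Figure D4:**
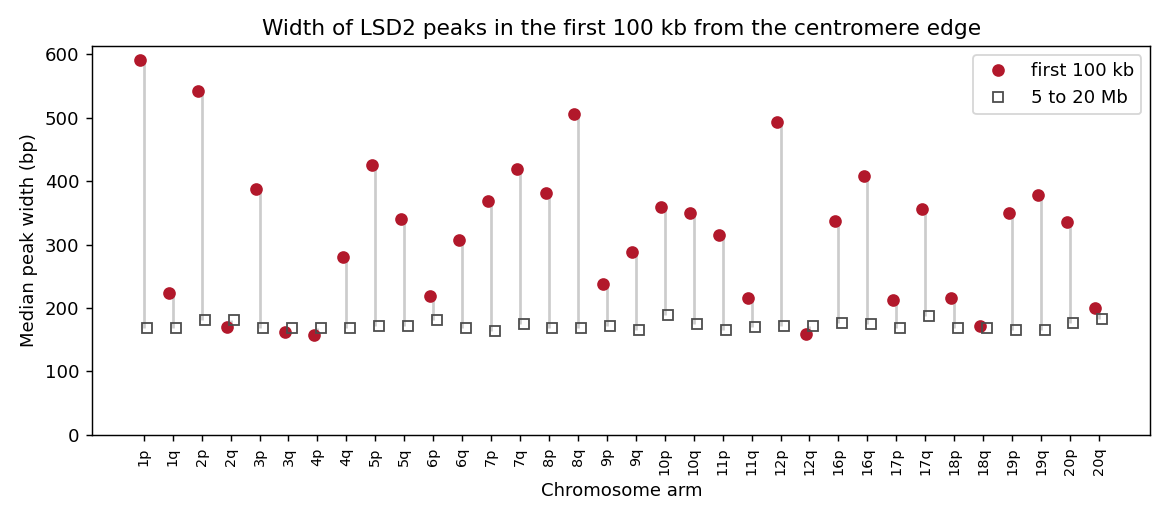
Median width in bp of peaks under 1000 bp on each arm, in the first 100 kb from the centromere edge (filled circles) and at 5 to 20 Mb (open squares). Circles lie above squares on 30 of 34 arms, while the squares stay between 164 and 189 bp.

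Peaks were wider where more of them lay together in both zones, so the edge was also set against stretches with a like number of peaks. Among 100 kb steps with 1 to 10 peaks, the median width was 269 bp at the edge (110 peaks), against 163 bp at 5 to 20 Mb. Among steps with 11 to 20 peaks it was 304 bp (232 peaks), against 170 bp. Among those with more than 20 it was 359 bp (82 peaks on 3 arms), against 200 bp. The edge peaks were the wider in all 3 classes. The cause of this difference was not tested.

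Beside other long peak-free stretches far out on the arms the peaks were not wide. Beyond 5 Mb from the edge, 157 stretches of 100 kb or more had 2341 peaks under 1000 bp within 100 kb of them, with a median width of 164 bp and 5.85% of 400 bp or more. For the 26 of at least 200 kb the values were 167 bp and 5.26%. Within 5 Mb of the edge, 71 such stretches had neighbours of 194 bp median width, with 12.6% of 400 bp or more, between the values of the first 100 kb and those of the zone at 5 to 20 Mb. Only 12 of these 921 neighbours lay in the first 100 kb, and without them the median was also 194 bp. All of these other stretches were at most 1.16 Mb long, against at least 3.002 Mb for the centromere ones. The comparison is therefore unlike in length, and what sets the width was not tested.

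Chromosome X holds no members, but it comes from the same list and libraries and was looked at after seeing the data. With its edge set by the same rule, it showed the same pattern of width at its longest peak-free stretch (chrX:58566266-61682021, 3.12 Mb). Its first 100 kb on both arms held 29 peaks under 1000 bp, and their median was 507 bp (351 to 671 bp), against 161 bp (159 to 162 bp) at 5 to 20 Mb. Of these, 65.5% were 400 bp or more, against 3.24%. From 100 to 500 kb the median was 265 bp over 59 peaks. Density within 5 Mb was 55.5 peaks per Mb, against 63.9 per Mb at 5 to 20 Mb (ratio 0.87, 95% exact interval 0.79 to 0.96).

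The edge peaks themselves varied widely. The peak that bordered each stretch was 143 bp wide at the least and 2464 bp at the most, with a median of 384 bp over the 34 arms, and 16 of 34 were 400 bp or more. The narrowest, chr4:49552979-49553121, was also the only one listed more than once. Narrow border peaks were also found at chr2:95326607-95326754 (148 bp), chr6:61881633-61881780 (148 bp) and chr12:37860794-37860943 (150 bp). Border peaks of 1000 bp or more, which the width limit leaves out, were found on 8q (chr8:46844726-46847189), 10q (chr10:42386344-42388724), 18q (chr18:18510898-18512553) and 16q (chr16:46416608-46417892).

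The width limit removed 72 intervals of 1000 bp or more from the flanks. At 5 to 20 Mb there were 50 in about 3 times the length, which gives 4.24 per 10 Mb in the flanks and 0.989 per 10 Mb farther out. Of the 72, 36 lay in the first Mb and 22 in the first 100 kb, where the 14 arms with any had 1 to 4 each. The widest were chr1:121351637-121358294 (6658 bp), chr8:43092462-43097599 (5138 bp), chr16:46425376-46430255 (4880 bp), chr16:33971962-33975996 (4035 bp) and chr16:46422172-46425360 (3189 bp). Chromosome 20 weighed on the count. Its long arm had 20 of the 72, and 13 of those lay in 35.5 kb at chr20:34292971-34328499, with widths of 1024 to 2624 bp. Without chromosome 20 the values were 3.13 and 0.905 per 10 Mb. The part of copy number and mappability in these counts was not tested either.

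The limits of 1000 bp and 5 Mb cut through a continuum. Just under the width limit were chr20:34297227-34298224 (998 bp), inside the cluster on 20q, chr12:34851343-34852337 (995 bp), chr16:34192363-34193334 (972 bp), chr11:51574187-51575152 (966 bp) and chr16:46898222-46899186 (965 bp). Just over it were chr20:32679337-32680341 (1005 bp), chr7:61979824-61980836 (1013 bp) and chr12:34841241-34842260 (1020 bp). The last members inside 5 Mb were 415 bp on 17q (chr17:30272515-30272929), 170 bp on 6p and 244 bp on 3q, and the first outside were 329 bp on 18q (chr18:23510855-23511183), 311 bp on 12q and 325 bp on 3p.

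Spacing within the flanks was close to that farther out, apart from an excess of long gaps. The distance from the end of a peak to the start of the next had a median of 4324 bp in the flanks (95% interval 4224 to 4428 bp), against 4264 bp (4202 to 4324 bp) at 5 to 20 Mb. Gaps under 1 kb made up 17.5%, against 17.2%, and the Wilson intervals of these shares overlap. By arm the median share was 16.3% in the flanks and 16.6% farther out, and the flank had the larger share on 11 of 34 arms, so the pooled and the by-arm values differ in direction. Gaps under 200 bp made up 3.04%, against 2.91%.

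Long gaps set the flanks apart more clearly. Gaps over 20 kb made up 8.89% (8.50% to 9.30%) of all gaps in the flanks, against 7.70% at 5 to 20 Mb, with the larger share in the flank on 23 of 34 arms. Gaps of 100 kb or more numbered 68 among 19741 gaps (0.344%), against 51 among 66430 (0.0768%). Without chromosome 9 they numbered 43 among 19522 (0.220%), against 39 among 63016 (0.0619%). In fixed 100 kb steps, 86 of 1700 (5.06%) held no peak in the flanks, against 44 of 5053 (0.871%), while steps with more than 20 peaks made up 10.8%, against 12.6%. On 9p the median gap was 24.1 kb, against 4.83 kb at 5 to 20 Mb, and on 9q it was 7.15 kb, against 4.87 kb.

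Tight runs of peaks were few, and fewer per length beside the centromere, where peaks as a whole were also sparser. No counting interval was computed for the number of runs, and the part of the lower density in it was not tested. Runs of 8 or more successive members within 2 kb of each other numbered 28 in the flanks, or 1.65 per 10 Mb, against 119, or 2.35 per 10 Mb, at 5 to 20 Mb. They held 1.33% of the members, against 1.78% of peaks farther out. The longest was 16 peaks over 14.4 kb at chr4:57336246-57350621, 4.66 Mb from the edge, with a median width of 274 bp. A run of 12 lay at chr20:30337601-30350910 and 1 of 11 at chr12:32893498-32903674. Runs of 10 were found on 2p, 2q, 10q, 17q and 18p, among them chr10:43311801-43319485 and chr17:29191709-29202258. The nearest of these 8 runs was 916 kb from the edge.

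Some intervals stand in the deposited list more than once, and the share that did so was low next to the centromere. In the whole flank it was 10.7% (95% Wilson interval 10.3% to 11.1%), against 10.4% (10.2% to 10.7%) at 5 to 20 Mb. In the first 100 kb it was 2.36% (10 of 424), then 3.20% from 100 to 200 kb and 7.49% from 200 to 300 kb. From 300 kb to 5 Mb it was 11.1%. By arm the flank's share ran from 2.84% on 20p to 24.8% on 17q, with the larger share in the flank on 15 of 34 arms. The files do not say why a line is repeated.

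Repeated listing came in blocks along the flanks. After a member listed more than once, the next member was too in 65.8% of cases, against 4.09% after a member listed once. Among peaks at 5 to 20 Mb these values were 67.9% and 3.74%. Of the 2120 repeated members, 1788 were listed 2 times and 332 at least 3 times. The most repeated was chr17:26697545-26697716, with 6 lines. It was followed by chr17:26686354-26686502 nearby, chr1:142653066-142653243 and chr7:63566636-63566976, with 5 lines each. The median width was 181 bp for repeated members, against 176 bp for those listed once.

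The chromosomes with long peak-free stretches and the ends of the same chromosomes serve as reference points. On chromosomes 1, 9 and 16 the flanks held 88.2 peaks per Mb, against 120 per Mb at 5 to 20 Mb (ratio 0.74, 95% exact interval 0.70 to 0.77), and on the other 14 chromosomes 123 per Mb, against 134 per Mb (ratio 0.92, 0.90 to 0.93). Chromosome 9 set the first of these values. Chromosomes 1 and 16 together held 121 peaks per Mb, against 123 per Mb (ratio 0.98, 0.94 to 1.03), with ratios of 1.11 on 1p, 0.95 on 1q, 0.75 on 16p and 1.11 on 16q. Short arms had a ratio of 0.84 (0.82 to 0.86) and long arms one of 0.93 (0.91 to 0.95).

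Both kinds of chromosome border were sparse, and they differed in width. The outermost 5 Mb of the 34 arms held 100.3 peaks per Mb, and the pericentromeric flanks had 1.16 times that density (1.14 to 1.19). Peaks of 400 bp or more made up 9.12%, against 7.42%, and gaps over 20 kb 8.89%, against 13.1%. Repeated listing was 10.7% in the flanks, against 13.1%. A small part of the outermost 5 Mb on short arms (1066 peaks in all) lies within 20 Mb of an edge.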

How the data were processed

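The data were 1 LSD2 ChIP library and 1 input library of HepG2 cells. Per the file headers, the authors trimmed reads, removed duplicates and called peaks with MACS for LSD2 over input, using fragments of 120 bp, 1e-05 as the p cutoff, local bias detection and 32 as the enrichment factor. BWA and hg19 are named in the submitters' processing notes, without a version of BWA or MACS. Each deposited line gives a start and an end position in bases. Signal and read depth were not analysed here.

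Identical lines were counted once: 414095 lines gave 370863 intervals, none overlapping another. Distances ran from the edge of the longest peak-free stretch to peak midpoints. Starts were taken to count from 0, and coordinates are printed counted from 1. Gaps are between neighbours of the full list that are both under 1000 bp. Ratios have exact (Clopper-Pearson) intervals, shares Wilson intervals and medians order-statistic intervals, all at 95%. Work was done in Python 3.11.15 with pandas 2.3.3 and scipy 1.17.1, and the procedure was tested on simulated data.

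Members, zones, thresholds and named regions were chosen with earlier results of these data known, and the 100 kb steps, the width classes at the edge, the comparison with other peak-free stretches and chromosome X after seeing the data. The rule for what the text names takes the 5 lowest and 5 highest arms or windows, the 5 widest peaks and the 5 longest gaps and runs. The gene and promoter tables at hand are on GRCh38.p14, so no gene or sequence is placed on the peaks.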

Additional observations from a re-analysis of the deposited data

How the results depend on the processing

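The direction of the density and width ratios held under each alternative run. The density ratio of 0.89 was 0.80 with 2 Mb flanks, 0.90 with 10 Mb flanks against 10 to 20 Mb, 0.93 among peaks of at least the median width, 0.92 without chromosomes 1, 9 and 16, 0.96 with peak-free stretches of 100 kb or more left out of the length and 0.92 at 1 to 5 Mb. The last and the leaving out of each chromosome were added after seeing the data. The width ratio of 1.03 was 1.05 with 2 Mb flanks, 1.01 with 10 Mb flanks and 1.01 among peaks of at least the median width. The share of gaps under 1 kb was 26.7% with every line counted, since repeated lines give gaps of 0, 12.2% among peaks of at least the median width, a set with fewer peaks, and 16.9% after merging peaks up to 100 bp apart. Repeated listing was 9.23% with 2 Mb flanks, 10.1% without chromosomes 1, 9 and 16 and 11.2% at 1 to 5 Mb. Where no reason is given, the cause was not tested. The other 30 of 45 values stayed within 1.5 times (number of sparser arms) or within the counting interval. The number of sparser arms ran from 21 of 28, without chromosomes 1, 9 and 16, to 28 of 34 with 2 Mb flanks. Its limit of 1.5 times is wide and could not be passed upward with 34 arms, so those 11 values say little about stability. With each chromosome left out, ranges were 0.86 to 0.92 for density, 23 to 25 of 32 arms for sparser flanks and 1.02 to 1.03 for width. They were 17.1% to 17.8% for short gaps and 9.72% to 11.2% for repeated listing. No paired analysis was possible because neither the ChIP nor the input had a second library.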
